A study of Mus musculus with 2 samples.

Results

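The transcripts of 10 genes of the immune checkpoint system were followed through the leukocytes of mouse colorectal tumors. They are the receptors Cd28, Icos, Ctla4, Pdcd1 (PD-1), Lag3, Havcr2 (TIM-3), Tigit and Btla, and the PD-1 ligands Cd274 (PD-L1) and Pdcd1lg2 (PD-L2). The members were taken by name from the 30905 genes of the count matrices, all 10 were found, and 18651 of the 30905 genes had a transcript in any kept cell. Transcripts were counted by their unique molecular identifiers (UMIs) with 3′ V3 droplet chemistry of 10x Genomics. The cells were CD45+ leukocytes, sorted by flow cytometry after tissue digestion and a Percoll gradient. The cells came from tumor tissue of male C57BL/6 mice. Both groups received the carcinogen azoxymethane (AOM, 12 mg/kg) and then drank 2.5% dextran sodium sulfate (DSS), an irritant of the colon lining, for 7 days followed by 14 days of water, in 3 such cycles. From cycle 2 on, 1 group ate ad libitum and the other ate a fasting-mimicking diet (FMD). Each diet is represented by 1 library, pooled from 4 mice, so no difference between the libraries has a replicate check and no test of the diets was possible. The titles name tumor tissue, while the protocol also mentions normal colon among the starting material.

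After filtering, 4836 cells of the ad libitum library and 4571 cells of the FMD library remained, with 32763729 and 31343899 UMIs and medians of 5495.5 and 5725 UMIs per cell. A transcript of Ptprc, which encodes CD45, was found in 91.9% and 93.5% of kept cells, and 7 barcodes occurred in both libraries, 4 of them among kept cells. B-like cells made up 62.5% and 59.3% of the kept cells. The 10 T cell classes together held 1207 and 1168 cells. Of 20 classes named from marker genes, 18 had at least 20 cells in each library. The members were left out when the cells were clustered, so that no member shaped the class in which it was then measured. Classes are called T-like, B-like and so on because they were rebuilt from markers. Both regulatory T-like classes are named by which of Il10 and Ikzf2 had the higher ratio to the other lymphoid clusters. Ikzf2 was not among the 10 leading genes of the Ikzf2-led class, whose first were Penk and Il1rl1. The lineage factor Foxp3 was found in 88.6% (Il10-led) and 82.7% (Ikzf2-led) of cells. Trdc, the constant gene of the delta receptor chain, was found in 95.1% of gamma delta T-like cells. A share of at least 50% of cells with Foxp3 or Trdc was itself the rule for these names. Levels are given as CPM, the UMIs of a gene per 1000000 UMIs of the class outside immunoglobulin and mitochondrial genes. Brackets give exact 95% intervals, which cover counting error only. Where values are given in pairs, the ad libitum library comes first.

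A T cell is activated when its antigen receptor signals together with CD28, which binds CD80 and CD86 on antigen-presenting cells. ICOS is a related costimulatory receptor, while CTLA-4 binds the same ligands as CD28 more tightly and limits activation. PD-1, LAG-3, TIM-3, TIGIT and BTLA are inhibitory receptors that rise on stimulated T cells and are high on exhausted T cells in tumors, and regulatory T cells of the gut and of tumors are known for high CTLA-4 and ICOS. PD-L1 is made by many blood and tissue cells and is raised by interferons, whereas PD-L2 is known mainly from dendritic cells, macrophages and some B cells. In the colon these receptors restrain responses to the microbiota, and antibodies against CTLA-4 and PD-1 can cause colitis in patients.

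The members fall into a few chromosomal neighborhoods in GRCm38 with GENCODE M21. On chromosome 1, Cd28 (ENSMUSG00000026012) lies at chr1:60716800-60773359, Ctla4 (ENSMUSG00000026011) at chr1:60887000-60915832 and Icos (ENSMUSG00000026009) at chr1:60977927-61000320, all on the plus strand, with 113640 and 62094 bases between neighbors. Pdcd1 (ENSMUSG00000026285) is on the minus strand at chr1:94038305-94052553. The ligand genes Cd274 (ENSMUSG00000016496, chr19:29367455-29388095) and Pdcd1lg2 (ENSMUSG00000016498, chr19:29410919-29471161) are 22823 bases apart on the plus strand of chromosome 19. Tigit (ENSMUSG00000071552, chr16:43648867-43664146, minus strand) and Btla (ENSMUSG00000052013, chr16:45224315-45257670, plus strand) share chromosome 16. Lag3 (ENSMUSG00000030124) is at chr6:124904361-124911705 on the minus strand and Havcr2 (ENSMUSG00000020399) at chr11:46454935-46481255 on the plus strand.

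The promoters of a receptor and ligand pair and of Ctla4 are shown because T cell receptor signaling is known to act on such genes through NFAT, whose DNA core is GGAAA. The 250 bases before the RefSeq start (GRCm38.p6) were available for 7 of the 10 members: Ctla4, Pdcd1, Havcr2, Tigit, Btla, Cd274 and Pdcd1lg2. Sequences run 5′ to 3′ in the direction of the gene, and capitals mark GGAAA or its reverse complement TTTCC. The windows are chr1:60908775-60909024 (plus strand) for Ctla4, chr1:94052554-94052803 (minus strand) for Pdcd1, chr19:29367188-29367437 (plus strand) for Cd274 and chr19:29410669-29410918 (plus strand) for Pdcd1lg2. The Ctla4 window lies inside the longer GENCODE span of that gene.
Ctla4: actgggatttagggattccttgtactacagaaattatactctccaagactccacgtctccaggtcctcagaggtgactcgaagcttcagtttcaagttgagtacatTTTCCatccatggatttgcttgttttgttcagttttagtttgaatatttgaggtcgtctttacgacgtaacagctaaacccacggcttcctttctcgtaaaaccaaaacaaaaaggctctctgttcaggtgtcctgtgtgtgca
Pdcd1: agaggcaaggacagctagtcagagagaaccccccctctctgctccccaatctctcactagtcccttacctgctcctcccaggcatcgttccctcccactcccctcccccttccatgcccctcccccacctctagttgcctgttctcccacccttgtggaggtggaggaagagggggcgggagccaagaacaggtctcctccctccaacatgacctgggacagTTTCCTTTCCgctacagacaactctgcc
Cd274: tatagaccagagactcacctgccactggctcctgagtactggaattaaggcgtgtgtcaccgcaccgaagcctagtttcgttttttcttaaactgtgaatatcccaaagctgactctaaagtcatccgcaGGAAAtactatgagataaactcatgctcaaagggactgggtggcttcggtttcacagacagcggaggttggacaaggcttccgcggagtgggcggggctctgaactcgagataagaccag
Pdcd1lg2: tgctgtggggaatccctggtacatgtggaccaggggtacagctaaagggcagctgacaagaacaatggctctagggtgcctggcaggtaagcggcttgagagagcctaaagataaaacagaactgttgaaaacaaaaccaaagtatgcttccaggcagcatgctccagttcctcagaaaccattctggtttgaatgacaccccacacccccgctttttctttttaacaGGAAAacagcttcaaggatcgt
Pdcd1 held 2 matches side by side, close to its start, as many as Tigit, while Ctla4, Cd274 and Pdcd1lg2 held 1 each and Havcr2 and Btla none. These counts are ordinary for so short a motif: 55.6% of 32851 promoter windows of the same length held at least 1 match and 21.4% held at least 2. An AP-1 site (TGACTCA, in 4.46% of windows), a forkhead site (GTAAACA, 3.17%), a STAT site (TTCNNNGAA, 7.02%) and an interferon response element (2.98%), searched on both strands, had no match in any of the 7 windows.

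**Figure D1:**
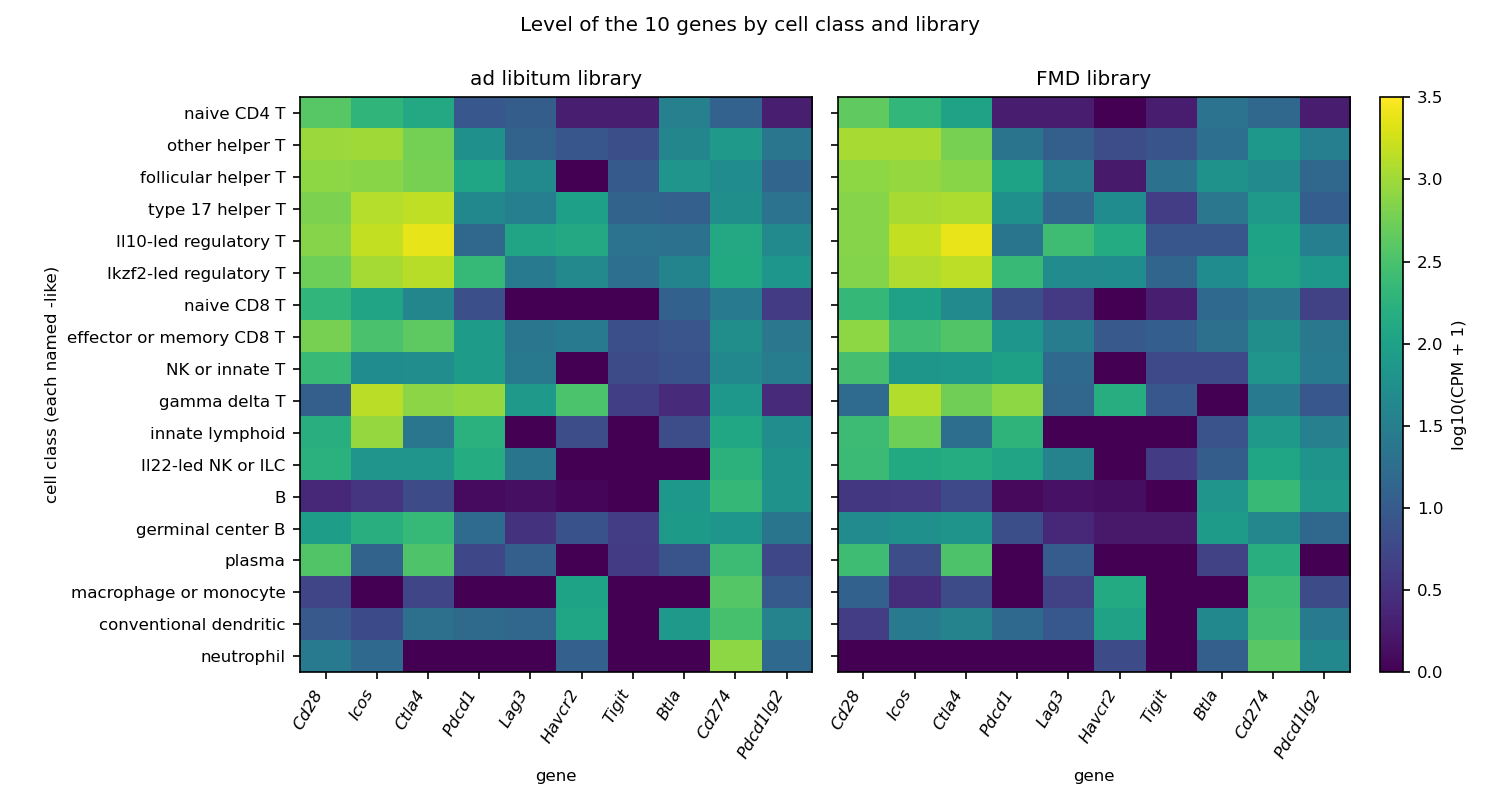
Heat map of the level of each of the 10 genes (columns) in 18 cell classes (rows), one panel per library, as log10 of CPM + 1. Ctla4 and Icos have their highest value in the Il10-led regulatory T-like class, Pdcd1 and Havcr2 in gamma delta T-like cells, and Cd274 in neutrophil-like cells, in both libraries.

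Cd28, the receptor of the second signal for T cell activation, was high in helper T cells and low in gamma delta T-like cells. It was highest in the other helper T-like class, conventional CD4 cells outside the naive, follicular and type 17 classes, at 954 CPM [899, 1011] and 1095 CPM [1041, 1151], with a transcript in 98.1% and 96.6% of cells. Follicular helper T-like cells had 796 and 805 CPM, and Il10-led regulatory T-like cells 737 and 736 CPM. In the FMD library effector or memory CD8 T-like cells (795 CPM) and type 17 helper T-like cells (740 CPM) stood between these 2 classes. In the ad libitum library the interval of the ratio of the follicular helper to the Il10-led class included 1. Naive CD4 T-like cells held 394 and 435 CPM and naive CD8 T-like cells 203 and 213 CPM, so the naive classes carried less than the other CD4 classes. Gamma delta T-like cells had 6 UMIs in each library, or 10.4 and 15.8 CPM, with a transcript in 2.82% and 5.88% of cells. B-like cells, which should lack the gene, were lower still at 1.54 and 2.73 CPM, with a transcript in 0.761% and 1.25% of cells. Their medians were 5078 and 5227 UMIs per cell, against 8289 and 7786 in gamma delta T-like cells.

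Between the libraries, Cd28 was slightly higher in the FMD library in several T cell classes. The log2 ratio of FMD over ad libitum was 0.41 [0.22, 0.60] in effector or memory CD8 T-like cells (598 and 795 CPM) and 0.41 [0.20, 0.61] in Ikzf2-led regulatory T-like cells (534 CPM against 708.5). In other helper T-like cells it was 0.20 [0.09, 0.31]. With every cell thinned to 1000 UMIs these 3 ratios were 0.23 [-0.28, 0.75], 0.23 [-0.28, 0.74] and -0.16 [-0.47, 0.15], so at that depth no difference was detectable. In Il10-led regulatory T-like cells it was 0.00. Over all T-like cells Cd28 stood at 535 and 645 CPM, a log2 ratio of 0.27. The ratio was 0.17 when the 10 classes were held at the mean of their shares in both libraries, and 0.13 [-0.02, 0.28] after thinning.

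Icos, the inducible costimulator of stimulated T cells, was high in several classes, among them regulatory, type 17, other helper and gamma delta T-like cells. The Il10-led regulatory T-like class led with 1492 CPM [1399, 1591] and 1525 CPM [1462, 1589], and 98.8% and 99.4% of its cells had a transcript. Close behind, gamma delta T-like cells had 1361 and 1250 CPM, and type 17 helper T-like cells 1307 and 1112 CPM. Ikzf2-led regulatory T-like cells held 1069 and 1198 CPM, and other helper T-like cells 1005 and 1100 CPM. The gamma delta T-like class thus paired an Icos level near that of regulatory T-like cells with next to no Cd28. Naive CD4 T-like cells (194 and 207 CPM) and naive CD8 T-like cells (110 and 99.8 CPM) were far lower. Innate lymphoid-like cells, of which only 6.8% had a transcript of Cd3e, held 886 CPM [751, 1037] from 24 cells and 526 CPM [469, 588] from 79 cells. That log2 ratio of -0.75 [-1.04, -0.46] lay between -1.36 and -0.31 under the alternative settings. In follicular helper T-like cells Icos went the other way, with 744 and 877 CPM and a log2 ratio of 0.24 [0.11, 0.37], which was 0.02 [-0.12, 0.16] with classes taken from marker scores.

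Ctla4, the inhibitory counterpart of Cd28, was found in every cell of the Il10-led regulatory T-like class, 83 of 83 and 181 of 181 cells. The level there was 2372 CPM [2253, 2495] and 2445 CPM [2365, 2526], and the log2 ratio was 0.04 [-0.04, 0.13]. After thinning to 1000 UMIs per cell, 83.1% and 88.3% of these cells still showed a transcript, so the gene was abundant and not only widely detected. Type 17 helper T-like cells had 1459 and 1185 CPM, a log2 ratio of -0.30 [-0.47, -0.13], and of -0.25 [-0.75, 0.23] after thinning. Ikzf2-led regulatory T-like cells had 1322 and 1435 CPM. Naive CD4 T-like cells (129 and 104 CPM) and naive CD8 T-like cells (39.9 and 47.0 CPM) lay at the low end of the T cell classes, and none of the 68 and 51 neutrophil-like cells held a Ctla4 transcript.

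In the FMD library a larger part of the Ctla4 UMIs came from 1 class. Il10-led regulatory T-like cells made up 1.72% of kept cells in the ad libitum library and 3.96% in the FMD library, and they held 21.8% and 45.9% of all Ctla4 UMIs. Over all T-like cells Ctla4 stood at 687 and 827 CPM, a log2 ratio of 0.27 [0.22, 0.32]. With the class shares held at their mean, the ratio was 0.01. Within classes the ratio was 0.36 [0.21, 0.50] in follicular helper T-like cells (596 and 763 CPM, and 0.24 [-0.16, 0.65] after thinning) and -0.48 [-0.72, -0.24] in gamma delta T-like cells (779 and 558 CPM). Because 1 pool of mice stands behind each share, whether the share of these cells differs between the diets was not tested.

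A large part of the Pdcd1 UMIs came from 1 small class. Gamma delta T-like cells, a class led by Trdc, Cd163l1 and Il17a, held 884 CPM [809, 964] from 71 cells and 808 CPM [720, 904] from 51 cells. They contributed 43.8% and 32.9% of all Pdcd1 UMIs of the libraries. A transcript was seen in 91.5% and 92.2% of these cells, and in 52.1% and 51.0% after thinning to 1000 UMIs. In B-like cells the share was 0.132% and 0.111%. The log2 ratio in gamma delta T-like cells was -0.13 [-0.34, 0.08].

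The 2 regulatory T-like classes differed in Pdcd1 in the reverse of their order for Ctla4. Ikzf2-led cells had 218 and 232 CPM, with a transcript in 45.0% and 50.6% of cells. Il10-led cells had 14.3 and 22.0 CPM, with a transcript in 7.23% and 11.6% of cells, at medians of 7567 and 7319 UMIs per cell against 6331 and 6456 in the Ikzf2-led class. Innate lymphoid-like cells had 173 and 187 CPM. Follicular helper T-like cells, in which PD-1 protein is a standard marker, had 116.5 and 106.8 CPM and a transcript in 22.2% and 20.5% of cells, below the gamma delta and Ikzf2-led classes. Effector or memory CD8 T-like cells had 84.5 and 68.6 CPM.

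In other helper T-like cells Pdcd1 was lower in the FMD library. A transcript was found in 21 of 154 and 16 of 175 cells. These cells held 66 and 30 UMIs, or 55.7 and 21.2 CPM over the class. This log2 ratio of -1.39 [-2.07, -0.75] was beyond 2-fold, and Btla in the same class was also (38.8 and 17.7 CPM, -1.13 [-1.90, -0.40]). These were 2 of 8 members with at least 20 UMIs in that class, where 1.84% of all genes tested were at least 2-fold lower in the FMD library. With doublets kept, the ratios were -0.78 for Pdcd1 and -0.80 [-1.69, 0.05] for Btla, and with at most 10% mitochondrial UMIs Pdcd1 stood at -0.91. Over all T-like cells Pdcd1 stood at 122 and 87.3 CPM, a log2 ratio of -0.48, which was -0.34 [-0.72, 0.02] after thinning and -0.12 with the class shares held at their mean.

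Lag3, which binds MHC class II, differed between the libraries in opposite directions in 2 classes. In Il10-led regulatory T-like cells, 69 UMIs in 83 cells of the ad libitum library stood against 377 UMIs in 181 cells of the FMD library. These are 109 CPM [85.1, 138] and 259 CPM [234, 287], a log2 ratio of 1.24 [0.87, 1.64]. A transcript was found in 30.1% [20.5, 41.2] and 50.8% [43.3, 58.3] of cells. Lag3 was the only member at least 2-fold higher there, 1 of 10, where 3.43% of all genes tested were. The ratio lay between 1.09 and 1.73 under every alternative except thinning to 1000 UMIs per cell, which left 18 and 51 UMIs and a ratio of 0.39 [-0.41, 1.25]. The FMD cells of this class held 62.2% of all Lag3 UMIs of their library, against 19.9% in the ad libitum library.

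In gamma delta T-like cells Lag3 was lower in the FMD library, with 44 UMIs in 71 cells against 5 UMIs in 51 cells. The level was 76.0 CPM [55.2, 102] and 13.2 CPM [4.27, 30.7], a log2 ratio of -2.53 [-4.22, -1.20], and 23.9% and 5.88% of cells had a transcript. Without the cell with the most Lag3 UMIs in each library the ratio was -3.60, and with classes taken from marker scores it was -2.06. Lag3, Havcr2 and Cd274 were the 3 of 6 members at least 2-fold lower in this class, against 3.12% of all genes tested. In Ikzf2-led regulatory T-like cells Lag3 had 20 and 26 UMIs, and the interval of its ratio of 0.78 [-0.12, 1.70] included 0. In type 17 helper T-like cells, 26 UMIs in 107 cells stood against 4 UMIs in 36 cells (31.4 and 13.3 CPM), a log2 ratio of -1.24 [-3.22, 0.28], which was -0.23 [-1.19, 0.70] with classes taken from marker scores. The few plasmacytoid dendritic-like cells, a cell type known to express LAG-3, held 17 UMIs in 4 cells and 15 UMIs in 6 cells. No Lag3 transcript was found in 24 and 79 innate lymphoid-like cells.

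Havcr2, which encodes TIM-3, spanned T cells and myeloid cells. In gamma delta T-like cells there were 189 UMIs in 71 cells and 58 UMIs in 51 cells, or 326 CPM [282, 376] and 153 CPM [116, 197], and 73.2% and 45.1% of cells had a transcript. The log2 ratio was -1.10 [-1.55, -0.67], and thinning, which left 21 and 10 UMIs, gave -0.59 [-1.84, 0.56]. Il10-led regulatory T-like cells held 128 and 142 CPM. Conventional dendritic-like cells (116 and 102 CPM) and macrophage or monocyte-like cells (106 and 136 CPM) held levels close to these. TIM-3 is also known from both of these myeloid cell types. In the FMD library the gamma delta and Il10-led classes could not be told apart in Havcr2 by their intervals, whereas in the ad libitum library the gamma delta class stood above all others with at least 20 cells.

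Other classes held Havcr2 as well. Mast or basophil-like cells had 130 and 115 CPM, from 8 and 16 cells. Type 17 helper T-like cells had 93.1 and 49.8 CPM (77 and 15 UMIs, in 33 of 107 and 9 of 36 cells), a log2 ratio of -0.90 [-1.81, -0.09]. Effector or memory CD8 T-like cells had 21 and 5 UMIs, in 12 of 108 and 5 of 85 cells, or 26.1 and 8.57 CPM. The log2 ratio was -1.61 [-3.37, -0.16], and -0.89 when classes were taken from marker scores. Havcr2 was the 1 of 8 members at least 2-fold lower there, against 2.26% of all genes tested. No transcript was found in 121 and 79 natural killer or innate-like T-like cells, which allows a share of up to 2.48% and 3.80% of cells with a UMI. Macrophage markers in gamma delta T-like cells were at 0 for 10 of 10 genes in the ad libitum library and for 9 of 10 in the FMD library.

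**Figure D2:**
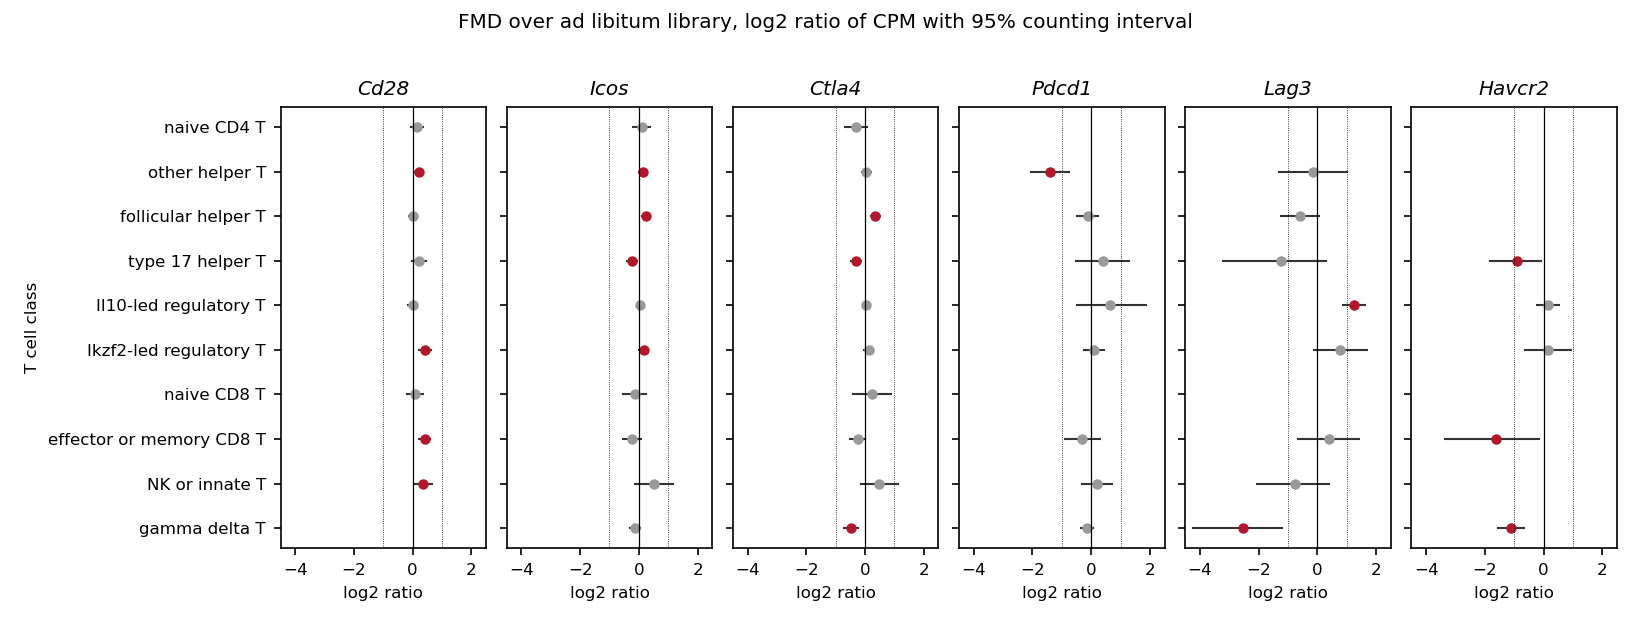
Log2 ratio of CPM, FMD over ad libitum, for 6 receptor genes (panels) in 10 T cell classes (rows), with 95% counting intervals. Points are red where the interval excludes 0, dotted lines mark 2-fold, and pairs of gene and class with fewer than 20 UMIs are not drawn. Lag3 lies at 1.24 in the Il10-led regulatory T-like class and at -2.53 in gamma delta T-like cells, while Ctla4, Icos and Cd28 stay within 2-fold in all 10 classes where drawn.

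Tigit, which competes with the activating receptor CD226 for PVR, was near the detection limit, with 75 and 71 UMIs in all kept cells. T-like cells held 88.0% and 94.4% of them. Follicular helper T-like cells had 10 and 24 UMIs, with a transcript in 5.26% and 11.4% of cells, a log2 ratio of 1.14 [0.02, 2.37]. It was the 1 of 9 members at least 2-fold higher in that class, against 1.89% of all genes tested. The interval included 0 under 5 alternatives, with a ratio of 0.80 [-0.41, 2.13] where classes were taken from marker scores. Il10-led regulatory T-like cells had 13 and 11 UMIs, or 20.6 and 7.56 CPM, a log2 ratio of -1.45 [-2.75, -0.17], and of -1.34 [-2.74, 0.03] without the cell with the most Tigit UMIs in each library. Btla in that class stood at 19.0 and 7.56 CPM, and Tigit and Btla were the 2 of 10 members at least 2-fold lower there, against 1.52% of all genes tested. None of 3024 and 2710 B-like cells had a Tigit transcript, where 3 counts, the limit that a count of 0 allows, give shares of cells with a UMI of up to 0.0992% and 0.111%.

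Btla, which binds HVEM, had most of its UMIs in B-like cells, which made up 62.5% and 59.3% of the kept cells. B-like cells held 1124 and 930 UMIs, 73.5% and 68.3% of the total, at 72.0 CPM [67.8, 76.3] and 65.0 CPM [60.9, 69.3], with a transcript in 27.5% and 26.6% of cells. The log2 ratio was -0.15 [-0.27, -0.02], and -0.05 [-0.21, 0.10] with classes taken from marker scores. Germinal center B-like cells had 78.9 and 85.5 CPM, and follicular helper T-like cells 66.1 and 61.4 CPM, 2 classes whose cells meet in the follicle. Conventional dendritic-like cells had 75.8 and 41.5 CPM from 45 and 50 UMIs. Their log2 ratio was -0.87 [-1.48, -0.26], but 0.38 with at most 10% mitochondrial UMIs and 0.03 with doublets kept. Gamma delta T-like cells, high in Pdcd1, Icos and Havcr2, had 1 and 0 Btla UMIs.

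Several of these receptors were found together in single cells, and at the depth as deposited the share was highest in gamma delta T-like cells. A transcript of at least 2 of the 5 receptors Ctla4, Pdcd1, Lag3, Havcr2 and Tigit was present in 61 of 71 and 40 of 51 gamma delta T-like cells (85.9% and 78.4%). At least 3 were present in 44 and 23 of them (62.0% and 45.1%), and 4 in 12 and 3 cells. Il10-led regulatory T-like cells followed with at least 2 receptors in 50 of 83 and 127 of 181 cells (60.2% and 70.2%), and Ikzf2-led cells with 57.7% and 67.1%. In gamma delta T-like cells Pdcd1 was found with Ctla4 in 49 of 71 and 37 of 51 cells and with Havcr2 in 48 and 23 cells. Ctla4 with Pdcd1 was also found in 49 of 111 and 43 of 85 Ikzf2-led cells. Lag3 with Havcr2 was found in 16 of 83 and 54 of 181 Il10-led cells, and in 14 and 1 gamma delta T-like cells. Effector or memory CD8 T-like cells, the usual subject of work on exhaustion, had at least 2 receptors in 27.8% and 30.6% of cells.

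Deeper cells show more transcripts, so all cells were also thinned to 1000 UMIs. At that depth at least 2 receptors were seen in 35.2% and 27.5% of gamma delta T-like cells and 25.3% and 27.8% of Il10-led regulatory T-like cells. In Ikzf2-led cells the shares were 15.5% and 20.5%. In the FMD library the gamma delta and Il10-led shares could not be told apart, with intervals of [15.9, 41.7] and [21.4, 34.9]. Type 17 helper T-like cells stood at 14.0% and 8.33%, and effector or memory CD8 T-like cells at 4.63% and 1.18%. Naive CD4 and naive CD8 T-like cells had none in either library. Over all T-like cells the share was 8.30% and 9.36%. Thinned to 2000 UMIs, the gamma delta class stood first in both libraries, at 59.2% and 52.9%. The Il10-led class then stood at 27.7% and 40.1%, and the Ikzf2-led class at 25.2% and 35.4%.

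**Figure D3:**
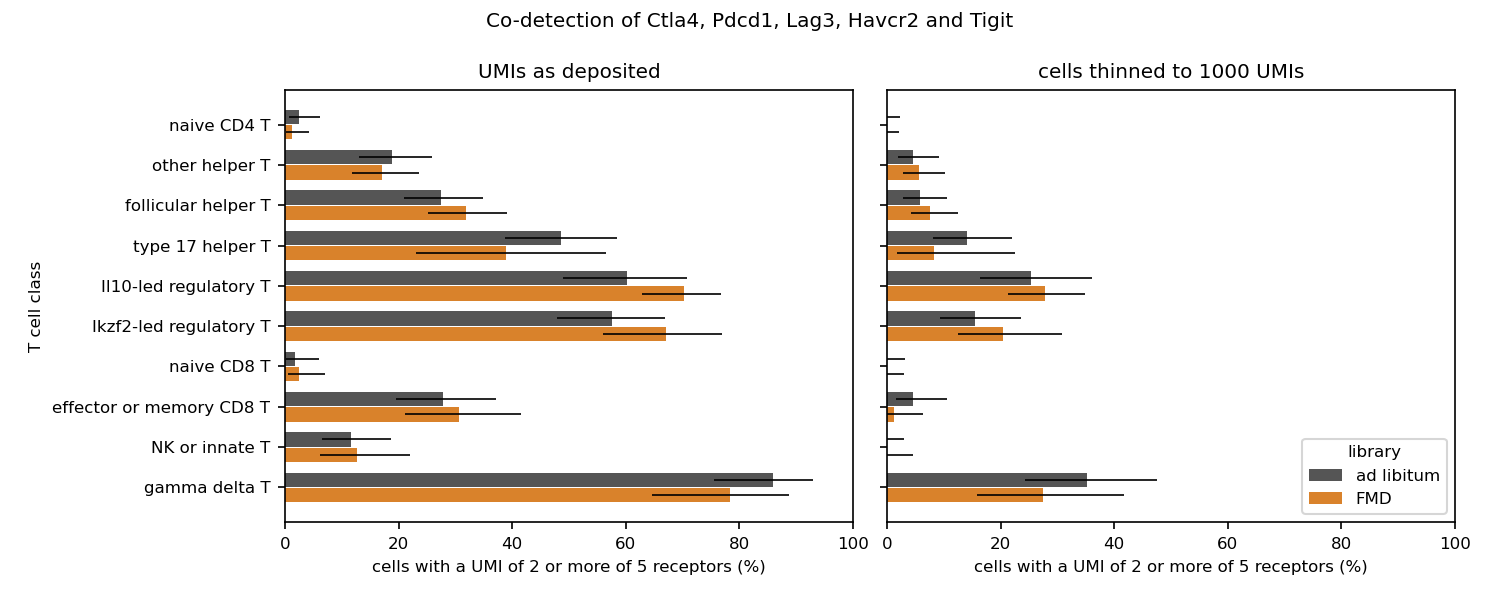
Share of cells (%) with a UMI of at least 2 of 5 inhibitory receptor genes in 10 T cell classes (rows), as deposited (left) and with cells thinned to 1000 UMIs (right), by library, with exact binomial 95% intervals. Gamma delta T-like cells have the longest bars in both libraries as deposited, at 85.9% and 78.4%, and the naive classes are at 0 after thinning.

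Plasma-like cells carried Cd28 and Ctla4 but hardly any Icos, although the 3 genes neighbor each other on chromosome 1. CD28 is known as a survival receptor of plasma cells. A Cd28 transcript was found in 77.8% [67.8, 85.9] of 90 and 81.2% [63.6, 92.8] of 32 plasma-like cells, a Ctla4 transcript in 71.1% [60.6, 80.2] and 84.4% [67.2, 94.7], and an Icos transcript in 7.78% and 9.38%. These cells are deep, with medians of 38032.5 and 40722 UMIs, most of them from immunoglobulin genes. Thinned to 1000 UMIs, 15.7% and 12.5% of them showed Cd28, against 0.165% and 0.296% of B-like cells. For Ctla4 the thinned shares were 19.1% and 15.6%, against 0.397% and 0.185% of B-like cells. Thinned to 2000 UMIs, Ctla4 was seen in 27.3% and 3.12% of plasma-like cells, the latter being 1 of 32 cells.

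The levels were 359 and 254 CPM for Cd28 and 341 and 331 CPM for Ctla4. Plasma-like cells also differed from T-like cells in the ratio of these genes, since they held 28.5 and 57.7 Ctla4 UMIs per Icos UMI. That ratio rests on 15 and 3 Icos UMIs, of which 12 and 2 were in cells with a Cd3d, Cd3e or Cd3g UMI. All T-like cells held 0.972 and 1.04 Ctla4 UMIs per Icos UMI, and B-like cells 2.21 and 1.73. Among plasma-like cells with no UMI of Cd3d, Cd3e or Cd3g (77 and 28 cells), a Cd28 transcript was found in 74.0% and 78.6% and a Ctla4 transcript in 71.4% and 82.1%. Cells in which Igha gave most heavy chain constant UMIs (83 and 23 cells) stood at 385 and 285 CPM of Cd28 and 370 and 392 CPM of Ctla4. The other 7 and 9 plasma-like cells had lower levels, with 116 and 144 CPM of Cd28 and 66.1 and 108 CPM of Ctla4. Between the libraries Cd28 in plasma-like cells had a log2 ratio of -0.50 [-0.79, -0.21], and Ctla4 of -0.04 [-0.30, 0.22].

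**Figure D4:**
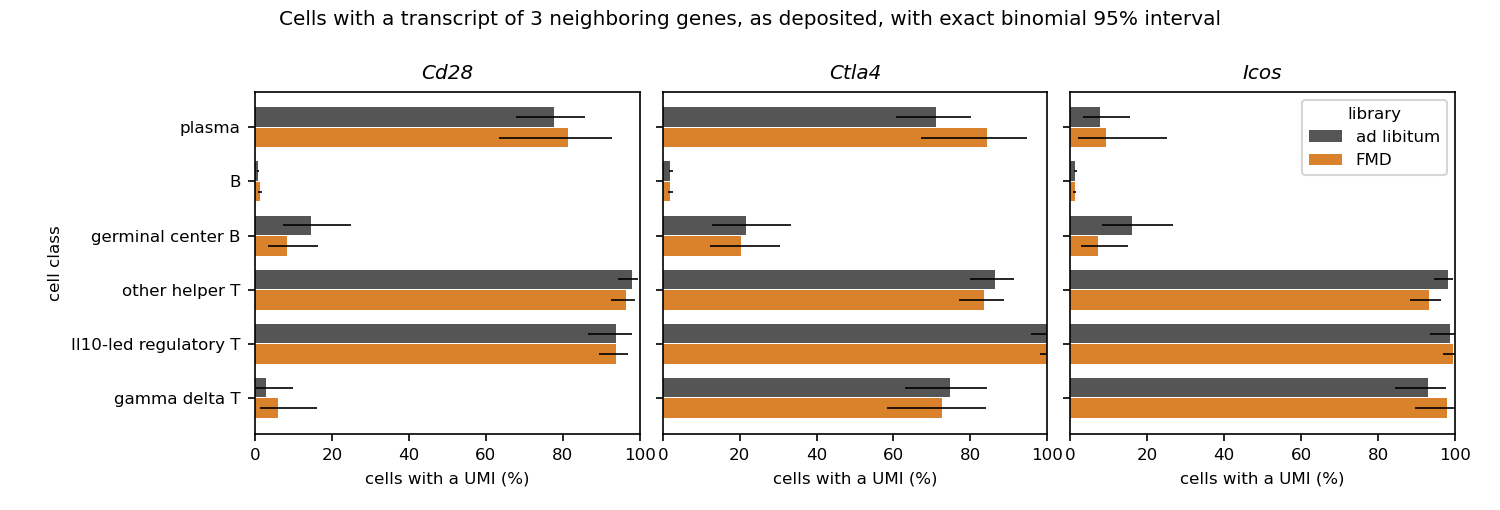
Share of cells (%) with a UMI of Cd28, Ctla4 and Icos (panels) in 6 cell classes (rows), by library, as deposited, with exact binomial 95% intervals. Plasma-like cells have long bars for Cd28 (77.8% and 81.2%) and Ctla4 (71.1% and 84.4%) and short ones for Icos (7.78% and 9.38%). Gamma delta T-like cells have short bars for Cd28 but not for Icos.

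Germinal center B-like cells also showed T cell receptors, but there they sat in a few cells with T cell transcripts. A UMI of Cd3d, Cd3e or Cd3g was present in 11 of 69 and 13 of 84 of them, and these cells held 98.6% and 97.4% of the Icos UMIs, 93.5% and 87.4% of the Ctla4 UMIs and all Pdcd1 UMIs of the class. The cell with the most Pdcd1 UMIs held 14 of 14 and 5 of 8 of them. For Icos the top cell held 28 of 142 and 43 of 76 UMIs, and for Ctla4 58 of 201 and 53 of 87. Icos (158 and 56.0 CPM, log2 ratio -1.49), Ctla4 (223 and 64.1 CPM, -1.80) and Pdcd1 (15.6 and 5.90 CPM, -1.40) were the 3 of 7 members at least 2-fold lower in the FMD library there, against 3.72% of all genes tested. The summed level of 8 T cell markers moved with them, at 1057 and 545 CPM, with no marker at 0. Without cells with a Cd3 UMI, 13 and 11 Ctla4 UMIs remained and the ratio was -0.94 [-2.24, 0.33]. With doublets kept the ratio of Pdcd1 was -0.98, and with classes taken from marker scores that of Icos was -0.68. In conventional dendritic-like cells, Icos had 3 and 31 UMIs, a log2 ratio of 2.35 [0.67, 4.70], as the 1 of 7 members at least 2-fold higher, against 3.99% of all genes tested. Of those 31 UMIs 30 lay in 6 cells with a Cd3 UMI, the T cell markers summed to 28.6 and 137 CPM, and the ratio was -0.50 with classes taken from marker scores.

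Among natural killer or innate lymphoid-like cells led by Il22, Icos (12 and 41 UMIs, log2 ratio 1.01 [0.05, 2.07]) and Ctla4 (12 and 46 UMIs, 1.17 [0.23, 2.23]) were at least 2-fold higher in the FMD library. They were 2 of 6 members, against 5.77% of all genes tested. The class held 27 and 51 cells, and with doublets kept the ratio of Icos was just under 2-fold (0.995).

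Cd274, the gene of PD-L1, had its highest level in neutrophil-like cells and its largest total in B-like cells. Neutrophil-like cells held 219 UMIs in 68 cells and 77 UMIs in 51 cells, or 799 CPM [697, 913] and 406 CPM [320, 507], a log2 ratio of -0.98 [-1.37, -0.60], 1.97-fold lower in the FMD library. A transcript was found in 66.2% and 56.9% of these cells, and in 32.3% and 27.7% after thinning to 1000 UMIs. The class joined a larger cluster led by Ngp and Retnlg (53 and 49 cells, 516 and 310 CPM) and a small one led by Zg16 and Il1a (15 and 2 cells, 1874 and 2360 CPM). Without the small cluster the log2 ratio was -0.74 [-1.23, -0.26]. Markers of neutrophils had no gene at 0 in this class, and 5 epithelial markers summed to 10.9 and 89.6 CPM with 2 and 1 of them at 0, and their part in the ratio was not tested. With 1 member of at least 20 UMIs in that class and 7.2% of all genes tested at least 2-fold lower, Cd274 itself was just short of 2-fold.

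The other myeloid cells carried Cd274 at intermediate levels. Macrophage or monocyte-like cells had 374 CPM [299, 462] and 249 CPM [208, 295], a log2 ratio of -0.59 [-0.99, -0.18]. That ratio ran from -1.11 at Leiden resolution 1.5 to -0.14 after thinning, and was -0.41 [-0.85, 0.04] without the cell with the most Cd274 UMIs in each library and -0.35 [-0.81, 0.12] at resolution 0.5. Conventional dendritic-like cells had 300 and 282 CPM. Within them, a cluster of 8 and 8 cells led by Fscn1, a gene of migratory dendritic cells, had 735 and 744 CPM. A cluster led by Il1r2 and Cxcl16 (21 and 55 cells) had 406 and 287 CPM, and a cluster led by Naaa and Cst3 (16 and 14 cells) had 23.1 and 107 CPM from 5 and 18 UMIs. Mast or basophil-like cells had 28 UMIs in 8 cells and 35 UMIs in 16 cells (521 and 286 CPM), and their log2 ratio of -0.86 was -0.02 [-1.05, 1.10] without the cell with the most Cd274 UMIs in each library.

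B-like cells held 3326 and 3245 Cd274 UMIs, 65.6% and 68.1% of all, at 213 CPM [206, 220] and 227 CPM [219, 235], with a transcript in 50.3% and 53.1% of cells. The log2 ratio was 0.09 [0.02, 0.16], and 0.04 [-0.05, 0.14] with classes taken from marker scores. By cluster, the level ran from 134 and 120 CPM in the cluster led by the heat shock gene Hspb1 to 252 and 301 CPM in the cluster led by the interferon-induced gene Ifi213. The cluster led by Egr3 and Myc, genes induced on stimulation, had 230 and 258 CPM. The cluster led by Apoe and Ccr6 had 243 and 210 CPM, a log2 ratio of -0.21 [-0.36, -0.07], against 0.24 [0.10, 0.38] in the cluster led by Bank1 and Ebf1 (231 and 273 CPM). The difference between these clusters was not tested. Germinal center B-like cells had less Cd274, at 68.9 and 40.5 CPM. Plasma-like cells had 247 and 161 CPM, a log2 ratio of -0.62 [-0.99, -0.27], and of -0.20 [-0.41, 0.01] with classes taken from marker scores.

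T-like cells held 10.4% and 10.9% of Cd274 UMIs. The regulatory T-like classes had the most among T cells, with 132 and 109 CPM in the Ikzf2-led and 127 and 108 CPM in the Il10-led class, against 11.7 and 14.0 CPM in naive CD4 T-like cells. The gamma delta class had 42 and 10 UMIs, or 72.5 and 26.3 CPM, a log2 ratio of -1.46 [-2.62, -0.44], which was -0.62 with classes taken from marker scores and -1.01 [-2.20, 0.04] at Leiden resolution 0.5.

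Pdcd1lg2, the gene of PD-L2, came mainly from B-like cells in these libraries. B-like cells held 75.8% and 76.7% of its UMIs, at 62.0 CPM [58.2, 66.1] and 76.5 CPM [72.0, 81.1], with a transcript in 23.7% and 29.4% of cells and a log2 ratio of 0.30 [0.18, 0.43]. Thinned to 1000 UMIs, the shares were 5.49% and 7.06%. The cluster led by Egr3 and Myc had 69.1 and 96.1 CPM, a log2 ratio of 0.48 [0.20, 0.75]. Ikzf2-led regulatory T-like cells had 67.2 CPM [49.7, 88.9] and 72.5 CPM [51.8, 98.7], a level not distinct from that of B-like cells. Conventional dendritic-like cells had 35.4 and 25.7 CPM and macrophage or monocyte-like cells 8.80 and 5.61 CPM. Plasma-like cells had 6 and 0 UMIs, in contrast to their Cd274. In type 17 helper T-like cells 17 and 3 UMIs gave a log2 ratio of -1.05 [-3.46, 0.74], past 2-fold with Lag3 as 2 of 8 members (5.79% of all genes tested), but the ratio was 0.30 at Leiden resolution 0.5 and 0.40 with classes taken from marker scores.

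**Figure D5:**
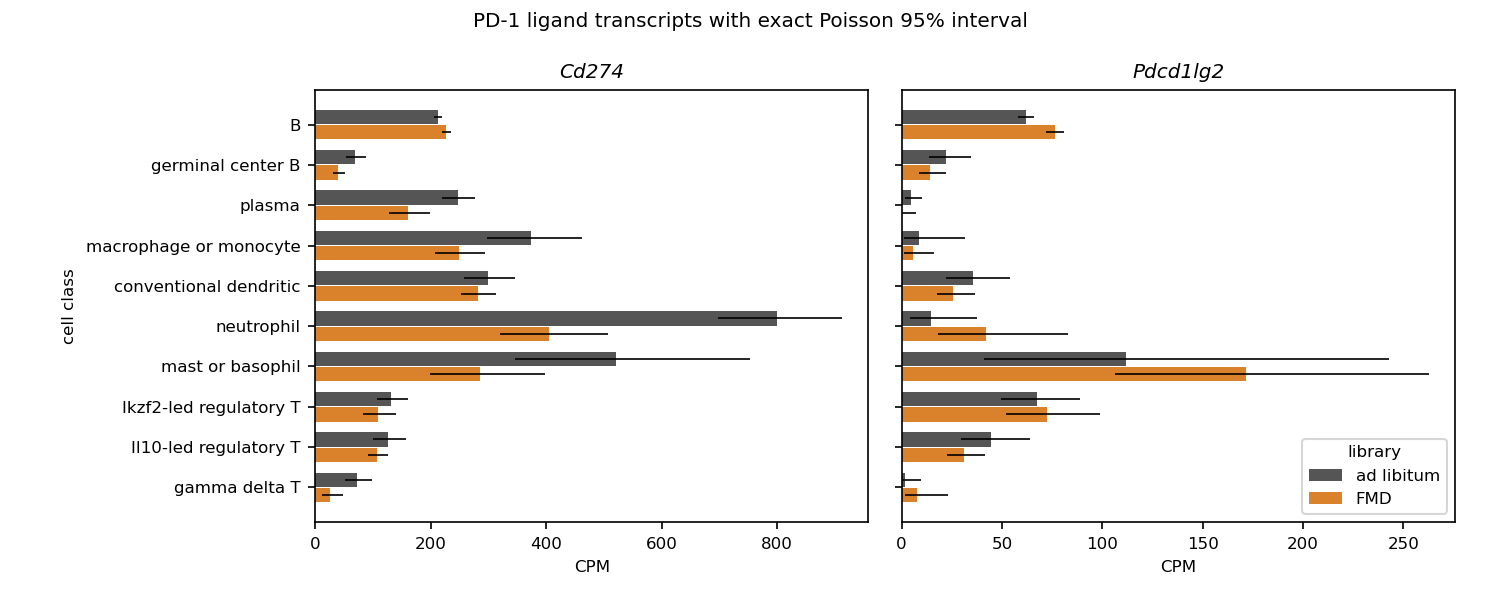
Level (CPM) of Cd274 (left) and Pdcd1lg2 (right) in 10 cell classes (rows), by library, with exact Poisson 95% intervals. Cd274 is highest in neutrophil-like cells (799 and 406 CPM), while Pdcd1lg2 is at 62.0 and 76.5 CPM in B-like cells and at 8.80 and 5.61 CPM in macrophage or monocyte-like cells.

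The partners of the receptors were read from a list of 13 ligands and competitors. Cd86, a ligand of CD28 and CTLA-4, was at 581 and 616 CPM in conventional dendritic-like cells, 395 and 447 CPM in B-like cells and 303.5 and 297.2 CPM in macrophage or monocyte-like cells. Cd80, the other ligand, was at 67.3 and 68.0 CPM in conventional dendritic-like cells and at 1.28 and 2.17 CPM in B-like cells. Icosl, the ligand of ICOS, stood at 101 and 66.3 CPM in conventional dendritic-like and 49.1 and 41.8 CPM in B-like cells. Pvr, a ligand of TIGIT, was found at 80.8 and 64.7 CPM in conventional dendritic-like cells. Cd226, the activating receptor for PVR, was at 67.4 and 65.8 CPM in gamma delta T-like cells and 65.8 and 75.4 CPM in effector or memory CD8 T-like cells. Cd160, a receptor for HVEM like BTLA, was at 182 and 171 CPM in natural killer or innate-like T-like cells. It was at 223 and 199 CPM in the Il22-led class and 123 and 118 CPM in effector or memory CD8 T-like cells. Lgals9, which encodes galectin-9, a proposed TIM-3 ligand, was at 98.5 and 105 CPM in neutrophil-like cells.

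Over all T-like cells, none of the 6 pathway lists had a gene at least 2-fold apart between the libraries, where 1.06% of all genes tested were at least 2-fold higher and 1.22% lower in the FMD library. The 10 of 13 partners with at least 20 UMIs had a median log2 ratio of 0.00, the 12 of 17 other inhibitory receptors and ligands -0.02, and the 7 of 11 costimulatory TNF receptor family genes -0.01. The 14 transcription factors of exhaustion and receptor signaling had a median of 0.09, the 11 of 12 proteins that bind receptor tails -0.01 and the 15 regulators of PD-L1 and PD-L2 -0.01, beside 0.01 over 10801 genes. In the 5 classes taken singly, of 100 or more cells per library, few genes of these lists were at least 2-fold apart. Of 49 list genes tested in naive CD4 T-like cells 1 was at least 2-fold higher (1.71% of all genes) and none lower (2.18%), and of 60 in other helper T-like cells 1 was higher (1.77%) and 1 lower (1.84%). In follicular helper T-like cells 1 of 55 was lower (1.85%), and in B-like cells 1 of 60 was higher (0.655%) and 1 lower (0.917%). None of 50 was so in naive CD8 T-like cells. Nr4a3, an early target of antigen receptor signaling, was higher in the FMD library in naive CD4 T-like cells (77.9 and 171 CPM, log2 ratio 1.13 [0.75, 1.53]). In other helper T-like cells Tnfrsf9, the costimulatory receptor 4-1BB, was lower (117 and 47.4 CPM, -1.31 [-1.75, -0.88]) and Lgals9 was higher (26.2 and 61.6 CPM, 1.23 [0.63, 1.88]). Irf4, a factor induced by receptor signaling, was lower in follicular helper T-like cells (46 and 25 UMIs, -1.01 [-1.77, -0.27]). In B-like cells Tbx21, which encodes T-bet, had 27 and 9 UMIs (-1.46 [-2.73, -0.33]) and Cd5, an inhibitory receptor, 13 and 37 UMIs (1.64 [0.69, 2.67]).

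Across the 18 classes, 113 pairs of member and class had at least 20 UMIs over both libraries. Of these pairs, 5 were at least 2-fold higher in the FMD library (2.68% of 112229 pairs of any gene and class) and 13 at least 2-fold lower (2.96%). The higher pairs were Lag3 in Il10-led regulatory T-like, Tigit in follicular helper T-like, Icos and Ctla4 in Il22-led, and Icos in conventional dendritic-like cells. Of the lower pairs, 3 were in gamma delta T-like and 3 in germinal center B-like cells. In the naive CD4 (1.71% of genes higher, 2.18% lower), naive CD8 (1.93% and 1.87%) and Ikzf2-led regulatory T-like classes (2.2% and 2.84%), none of 5, 5 and 10 members was 2-fold apart. Members in 1 class share its cells, so these pairs are not independent of each other. Over all kept cells none of the 10 members was 2-fold apart, where 1.93% of all genes were higher and 2.2% lower. Lag3 came nearest, at 11.9 and 21.04 CPM, a log2 ratio of 0.82.

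As a description, each member was set beside all genes with at least 100 UMIs by the Pearson correlation of log2(CPM + 10) over 36 points, the 18 classes in each of 2 libraries. Points of 1 library share their depth, and those of 1 class share its markers. Icos lay nearest to Zap70 (r = 0.93), Lat (0.91) and Camk4 (0.91), signaling genes of the T cell receptor. Pdcd1 lay nearest to Mgat5 (0.86), Lysmd2 (0.84) and Il2rb (0.82), and Ctla4 to Pkp3 (0.92), Vcpkmt (0.91) and Asxl1 (0.91). Havcr2 was nearest to Ppp2ca (0.90), Ndrg1 (0.87) and Nfkbib (0.86), and Lag3 to Dnajb13 (0.81), Fancf (0.79) and Gas2 (0.79). Cd28 was nearest to Abhd8 (0.89), Polg2 (0.87) and Inpp4b (0.87), Btla to Cd200 (0.79), Prkcb (0.73) and Dnase1l3 (0.72), and Tigit to Aplp1 (0.88), Khdrbs1 (0.83) and Ctla4 (0.81). Of the ligands, Cd274 lay nearest to Mpc1 (0.89), Ncf4 (0.87) and Atp6v0b (0.83), and Pdcd1lg2 to Rel (0.72), Nfkbid (0.70) and Inpp5d (0.68). Among the members themselves Ctla4 correlated with Icos at 0.80, with Lag3 at 0.77 and with Cd28 at 0.72.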

How the data were processed

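Counts of UMIs per gene and cell were deposited by the authors as 1 matrix per library, not normalized. The submitters' processing notes name GRCm38 and the tools Cell Ranger 3.1.0, CASAVA 1.8 and Seurat 2.3.4, without their roles. Barcodes had been preselected, with a lowest total of 500 UMIs, among 6089 (ad libitum) and 5877 (FMD) barcodes with 35712762 and 35280790 UMIs. The groups come from the treatment given in the characteristics of each sample, and no per-sample column was left unused (0). For 62 symbols listed more than once the first line was used.

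Cells with fewer than 200 genes (475 and 441 barcodes) or over 20% mitochondrial UMIs (661 and 694) were removed. Scrublet called 2 and 2 doublets (0.04% of cells), too few to have worked, so cells were also removed that carried 2 lineage panels (among myeloid, T and B) at 5 or more UMIs and 0.5 or more per 1000 UMIs (117 and 171 in all). Both libraries were clustered together with scanpy 1.11.5 and leidenalg 0.10.2 (2000 variable genes, 30 principal components, 15 neighbors, resolution 1, seed 1) under Python 3.11.15, with no batch correction, and lymphoid and myeloid cells were clustered again. Members, pathway genes that mark no class, immunoglobulin, T cell receptor variable, ribosomal and mitochondrial genes were left out. Names were given to the 35 clusters by marker lists, with thresholds set after the clusters were seen, so class names may differ from those of the study. Other helper T-like cells rest on the T cell list with Cd4 and Cd40lg. Clusters that did not meet the rules stayed unnamed (248 and 241 cells).

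UMIs were summed per class and library, and CPM was taken over UMIs outside immunoglobulin and mitochondrial genes. Sums carry exact Poisson intervals, shares exact binomial (Clopper-Pearson) intervals and log2 ratios conditional binomial intervals, all at 95% and for counting error only. PCR and droplet loss are not covered. Ratios of pairs with at least 20 UMIs were called at 2-fold. A count of 0 was read as up to 3 counts. With 1 library per diet no p-value is given. The calculation of the log2 ratio and its interval was tested on simulated counts with known ratios, made from the B-like and Il10-led regulatory T-like classes. The other steps were not tested on simulated counts. The members and lists were chosen with earlier results of these data known. Pathway genes were named when at least 2-fold apart with an interval that excluded 0, in classes of 100 or more cells per library, at most 5 per class, and 3 genes most alike were named for each member. Alternatives changed clustering, class naming, the mitochondrial limit, doublets, scaling, depth and single cells. The alternatives with fixed T cell class shares, without cells with a Cd3 UMI and without 1 neutrophil cluster were added after seeing the data.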

Additional observations from a re-analysis of the deposited data

Results flagged for a closer look

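For 4 members the ratio of FMD over ad libitum was at least 2-fold in opposite directions in different cell classes, and the difference between those classes was not tested. Lag3 had a log2 ratio of 1.24 in Il10-led regulatory T-like cells and -2.53 in gamma delta T-like cells. Tigit had 1.14 in follicular helper T-like cells and -1.45 in Il10-led regulatory T-like cells, on 75 and 71 UMIs in all kept cells. Icos had 1.01 in Il22-led natural killer or innate lymphoid-like cells and 2.35 in conventional dendritic-like cells, against -1.49 in germinal center B-like cells. Ctla4 had 1.17 in the Il22-led class and -1.80 in germinal center B-like cells. In the conventional dendritic-like and germinal center B-like classes the T cell markers moved with these ratios, at 28.6 and 137 CPM and at 1057 and 545 CPM. Without cells with a Cd3 UMI, germinal center B-like cells kept 2 and 2 Icos UMIs. They kept 13 and 11 Ctla4 UMIs, a log2 ratio of -0.94 [-2.24, 0.33]. Conventional dendritic-like cells without a Cd3 UMI kept 1 and 1 Icos UMIs. Beyond these counts, the part of T cell RNA in the result was not tested. As each library is 1 pool of 4 mice, the classes within it share the same animals.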

How the results depend on the processing

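Of 1215 log2 ratios of members recomputed under the alternatives, 1108 stayed inside the counting interval of the reported ratio. The share differed by alternative. With CPM over all UMIs 144 stayed inside and 3 moved out. After thinning to 1000 UMIs only 37 stayed inside, while 34 moved out and 3 reversed a sign whose interval excluded 0. With classes taken from marker scores these counts were 98, 29 and 3. Among all 1215 the sign changed in 116, of which 108 had a reported interval that included 0. The other 8, with a reported interval that excluded 0, were Cd28 with cells thinned to 1000 UMIs in other helper T-like cells (-0.16) and in natural killer or innate-like T-like cells (-0.38), and Cd274 over all kept cells (0.021), and, with classes taken from marker scores, Cd28 in innate lymphoid-like cells (-0.12), Icos in conventional dendritic-like cells (-0.50) and Cd274 in mast or basophil-like cells (0.014). Btla in conventional dendritic-like cells was among the 8 with at most 10% mitochondrial UMIs (0.38) and with doublets kept (0.031). Over all kept cells, CPM over all UMIs gave Cd28 0.25, Icos 0.24 and Ctla4 0.23, and thinning gave Icos 0.27, Ctla4 0.32, Lag3 0.54, Havcr2 -0.29 and Btla -0.28. The number of pairs at least 2-fold higher in the FMD library was 2 of 47 after thinning (3.05% of all pairs of gene and class), 8 of 130 from 10 UMIs (4.8%) and 3 of 88 from 50 UMIs (0.873%). The number at least 2-fold lower was 1 after thinning (3%), 16 from 10 UMIs (5.19%) and 6 from 50 UMIs (1.04%). Thinning leaves fewer UMIs and weights cells equally, and for the others the cause was not tested. Thinning to 2000 in place of 1000 UMIs moved 8 of 26 shares of cells with several receptors and 82 of 184 shares with a single member. No paired analysis was possible because each diet has 1 library. Depth limits Tigit in every class, and Lag3 after thinning.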

Other observations

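Among cells outside the named classes, a T cell cluster led by the interferon-induced genes Ifit3, Ifit1 and Mx1 held 7 cells of the ad libitum and 29 cells of the FMD library. It mixed cells with Cd4 (41.7%) and with Cd8a (22.2%). A small cluster of follicular helper T-like cells led by Gal, Fam43a and Cebpa held 16 and 13 cells, of which 20.7% had a Foxp3 transcript. Ctla4 in that cluster stood at 1111 CPM [900, 1357] and 2311 CPM [1974, 2690], above the 596 and 763 CPM of the whole follicular helper T-like class, with 96 and 167 UMIs. In the Ifit3-led cluster Ctla4 had 6 and 90 UMIs, or 125 and 381 CPM. Both clusters were singled out after their values were seen, and no difference between the diets was tested.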
